A study of Mus musculus with 20 samples.

Results

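The histone acetyltransferases measured here were the 10 genes Crebbp, Ep300, Kat2a, Kat2b, Kat5, Kat6a, Kat6b, Kat7, Kat8 and Ncoa1, taken as every probe set that the array's gene table pairs with one of these symbols. This gave 26 probe sets of 45037 tested, and 10 of the 18193 genes named by a single symbol. Whole brains of Hdac4KO neonates were compared with whole brains of WT neonates at postnatal day 3, with 10 arrays per genotype and 5 per labelled sex and genotype. The Hdac4KO mice were homozygotes bred from a knock-out colony, WT mice carried no knock-out allele, and both groups shared the B6CBAF1/OlaHsd background and received no treatment. The labels name no tissue-specific or inducible driver of the knock-out. The part of the gene that the allele lacks was not given in the sources used here.

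Histone acetyltransferases move an acetyl group from acetyl-CoA onto lysines of histone tails and of other proteins, and histone deacetylases take it off again. They work as coactivators that transcription factors bring to promoters and enhancers, mostly inside large complexes. Crebbp and Ep300 encode CBP and p300, which bind the activated factor CREB and many others; CBP is required for long-term memory in mice. HDAC4, the protein missing here, is a class IIa deacetylase with little deacetylase activity of its own.

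At the brightest probe set of each gene none of the 10 acetyltransferases was called, and 9 of the 10 differed by less than 10% between Hdac4KO and WT brains. Over all genes, 16679 of 18193 brightest probe sets differed by less than 10%. Only Crebbp and Ncoa1 had called probe sets. One probe set of Crebbp was higher in Hdac4KO brains by 11.7% while another was lower by 30.5%, and one of Ncoa1, a steroid receptor coactivator, was higher by 9.0%. A probe set was called where limma's adjusted p, taken over all 45037 probe sets, lay under 0.05. Values are log2 signals as deposited, a fold change is the mean of Hdac4KO minus the mean of WT on that scale, and the brightest probe set is the one with the highest mean over the 20 arrays. Levels of different probe sets have no common scale and were not read as amounts of RNA. They were used to pick the brightest probe set and to form per-array differences within a gene. A dim probe set was one above its array's median in fewer than 10 of the 20 arrays.

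Of the 26 probe sets, 2 were higher and 1 was lower, which is 11.5%. Over all probe sets tested, 2.06% were called, 1.05% as higher and 1.01% as lower. These 3 calls came from 2 genes, and probe sets of 1 gene are not independent. By gene, 2 of 10 had a called probe set, against 4.06% of all genes. Among the 8 acetyltransferases with more than 1 probe set it was 2, against 6.77% of all such genes. At the brightest probe sets 0 of 10 were called by limma, against 1.96% of all genes (1.45% higher and 0.517% lower), and 1 of the 10 had an unadjusted p under 0.05, beside 19.0% of all genes. Over all 26 it was 8 (30.8%), beside 18.0% of all probe sets. The median log2 fold change of the 26 was 0.03, beside 0.00 over all probe sets, and that of the 10 brightest was 0.04, beside 0.01 over the brightest of every gene. No probe set of the 10 genes had all Hdac4KO arrays on 1 side of all WT arrays, which held for 0.0777% of probe sets tested.

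**Figure D1:**
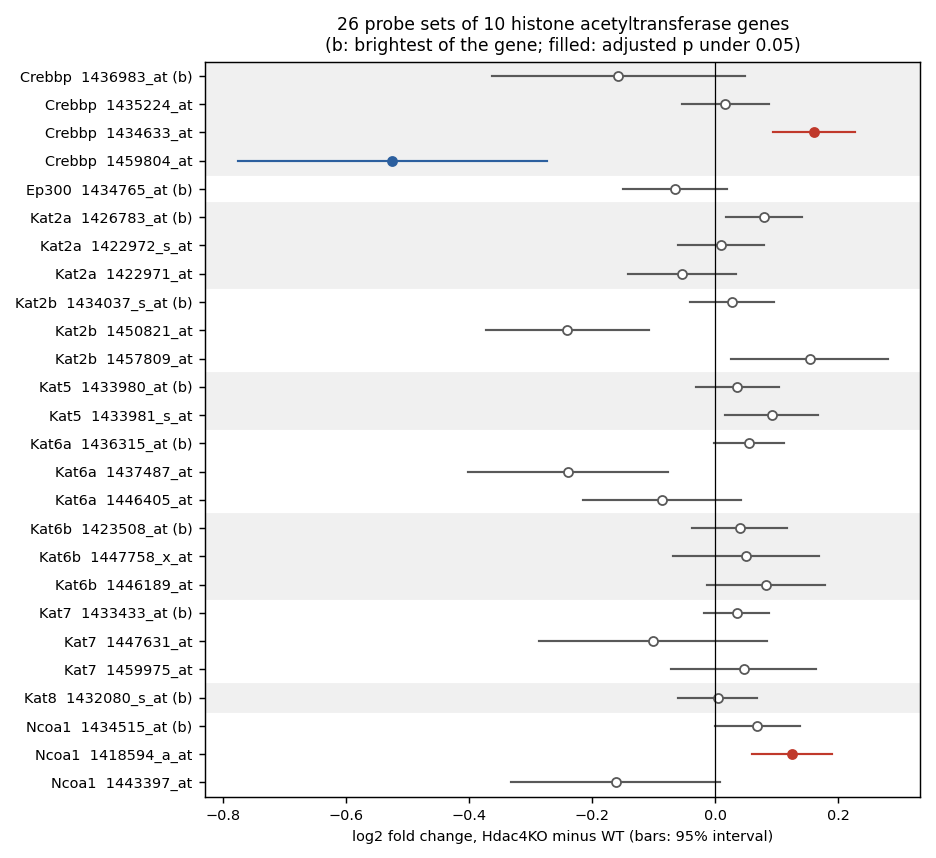
Log2 fold change (Hdac4KO minus WT, x axis) of the 26 probe sets of the 10 acetyltransferase genes (y axis), with 95% confidence intervals from limma over 10 arrays per genotype. Filled points passed an adjusted p of 0.05: 2 lie right of 0, at 0.16 and 0.12, and 1 lies left of it, at −0.52.

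Hdac4 itself was lower in the arrays labelled Hdac4KO. Its brightest probe set lay at 6.02, 6.50 and 7.43 (lowest, median and highest) in Hdac4KO arrays and at 7.54, 7.96 and 8.08 in WT arrays, with no overlap. The highest Hdac4KO array was replicate 10 and the lowest WT array was replicate 8, so called results were also computed without these arrays. The sex-linked genes of WT replicates 5 and 9 were those of the other sex than labelled. Hdac4KO replicate 10, labelled male, carried both signals, with Xist at 12.3 and a mean of 6.95 over Y-linked genes, against 3.02 to 3.32 in arrays labelled female other than WT replicate 9. Array medians lay between 6.26 and 6.32. The 3′ minus 5′ log2 signal of the actin and Gapdh controls, a measure of RNA and labelling quality, was 0.216 ± 0.030 in Hdac4KO and 0.191 ± 0.031 in WT arrays (SD, n = 10 each; two-sided permutation test, p = 0.0842). Actin alone gave 0.520 in Hdac4KO and 0.480 in WT arrays (p = 0.0482, same permutation test), and Gapdh alone −0.089 in Hdac4KO and −0.099 in WT arrays (p = 0.475, same permutation test). All 9 neuronal markers were above the array median in every array, and their summed log2 level was 15.99 to 16.07 in Hdac4KO and 16.00 to 16.04 in WT arrays. At the brightest probe sets 1 of the 9 was called, Nefl, a neurofilament gene that was lower (−0.28, limma adjusted p = 0.0427). The summed level of 5 choroid plexus markers was 13.95 to 14.18 in Hdac4KO and 14.08 to 14.31 in WT arrays, and Ttr, the transthyretin gene that defines this tissue, was lower (−0.14, limma adjusted p = 0.0420), the only one of the 5 called. None of the brightest probe sets in the other 7 marker lists was called by limma, and 7 of their 34 markers had an unadjusted p under 0.05, beside 19.0% of all genes. The part of these marker differences in the results was not tested. In RNA of whole brain, fewer cells of a type and less RNA per cell cannot be told apart.

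The promoters of Crebbp and Ncoa1, the genes with called probe sets, are shown because their annotated transcripts start there. They are RefSeq windows of GRCm38.p6, each 300 bases from 250 before to 50 after the annotated start, written 5′ to 3′ on the minus strand on which both genes lie (chr16:4213355-4213654 and chr12:4477133-4477432), with every GC box (GGGCGG, the core bound by Sp1 family factors) in capitals.
Crebbp: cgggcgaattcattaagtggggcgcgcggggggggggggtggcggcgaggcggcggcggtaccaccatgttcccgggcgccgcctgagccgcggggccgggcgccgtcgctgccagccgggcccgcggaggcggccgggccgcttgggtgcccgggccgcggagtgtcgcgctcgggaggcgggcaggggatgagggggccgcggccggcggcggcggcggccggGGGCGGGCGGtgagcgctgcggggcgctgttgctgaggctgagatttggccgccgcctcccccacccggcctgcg
Ncoa1: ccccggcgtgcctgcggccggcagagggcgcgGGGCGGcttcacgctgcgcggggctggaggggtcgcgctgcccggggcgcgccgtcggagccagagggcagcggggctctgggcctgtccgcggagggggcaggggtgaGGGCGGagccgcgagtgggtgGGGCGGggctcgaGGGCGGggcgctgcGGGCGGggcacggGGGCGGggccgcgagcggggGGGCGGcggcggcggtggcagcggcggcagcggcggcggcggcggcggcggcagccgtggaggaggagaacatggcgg
The Crebbp window is 82% G or C and holds 2 GC boxes that share bases with each other, and the Ncoa1 window is 84.7% G or C and holds 7. In total 9 of the 10 genes had windows in the table, 13 in all, and Kat6a had none. Searched on both strands, the GC box was in 8 of the 13 windows, from 6 of the 9 genes, and in 35.7% of 32851 promoters. Some genes have more than 1 window, and those of Kat6b overlap and hold the same GC boxes, so windows are not independent. The CREB response element TGACGTCA was in 0 of the 13 (1.79% of promoters), and the MEF2 site, bound by factors that HDAC4 holds in check, also in 0 (3.19%). The CCAAT box (CCAAT) was in 5 (37.4%) and the ETS site CCGGAAGT in 3, those of Kat5, Kat7 and Kat8 (3.89%). Neither of the 2 printed windows holds any of the other motifs. None of the 10 genes lies on chromosome 1, which carries Hdac4.

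Crebbp had the most probe sets of the 10 genes, and they did not move together. The probe set 1434633_at was higher in Hdac4KO brains. It lay at 9.09, 9.27 and 9.38 (lowest, median and highest) in Hdac4KO arrays and at 9.04, 9.11 and 9.18 in WT arrays. In 9 of 10 Hdac4KO arrays it was above every WT array, and the exception was replicate 10 at 9.09. The log2 fold change was 0.16 (SE 0.03, 95% interval 0.09 to 0.23, limma adjusted p = 0.0182). It was called when any single array was left out and, at 0.18, without Hdac4KO replicate 10 and WT replicate 8. With the 3′ minus 5′ signal as a covariate it was 0.15 and was not called (adjusted p = 0.0851).

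The Crebbp probe set 1459804_at was lower. Its values were 5.14, 5.81 and 6.19 in Hdac4KO arrays and 5.83, 6.30 and 6.53 in WT arrays. All 10 Hdac4KO arrays lay below the WT median and 5 lay below every WT array, so the groups overlapped. The lowest arrays of the Hdac4KO group were replicates 10 (5.14), 8 (5.22) and 9 (5.48), and those of the WT group were replicates 10 (5.83) and 9 (5.92). The log2 fold change was −0.52 (SE 0.12, 95% interval −0.78 to −0.27, limma adjusted p = 0.0301). This is a dim probe set, above its array's median in 5 of 20 arrays. The call was lost without Hdac4KO replicate 8 or 9, or WT replicate 2, 3, 4, 5 or 7, each left out alone (adjusted p between 0.0508 and 0.0578), and without Hdac4KO replicate 10 and WT replicate 8 together (adjusted p = 0.0606). In those single-array fits the fold change lay between −0.52 and −0.47. Calls over all probe sets were 0.779% to 1.22% there, beside 2.06% with every array. Without Hdac4KO replicate 10 alone the fold change was −0.46 and was called (limma adjusted p = 0.0445). With the 3′ minus 5′ covariate the fold change was −0.39 and was not called (adjusted p = 0.136). That signal was highest in Hdac4KO replicates 10 (0.262), 3 (0.254), 8 (0.240) and 9 (0.239), which lay at 5.14, 5.76, 5.22 and 5.48 at this probe set. In WT arrays it was highest in replicates 6 (0.233) and 7 (0.230), which lay at 6.35 and 6.31. In the lowest WT arrays, replicates 10 and 9, it was 0.208 and 0.201. Whether this signal is a cause of the difference was not tested.

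The other probe sets of Crebbp were not called. The brightest, 1436983_at, lay at 9.63, 10.36 and 10.59 in Hdac4KO arrays and at 10.24, 10.48 and 10.59 in WT arrays, a log2 difference of −0.16 (SE 0.10, 95% interval −0.36 to 0.05, limma adjusted p = 0.427). It was −0.08 without Hdac4KO replicate 10, and also with the 3′ minus 5′ covariate. Here the Hdac4KO arrays spread mainly below the WT group, with an SD of 0.32 in Hdac4KO and 0.11 in WT arrays. Hdac4KO replicates 8, 9 and 10 (10.16, 9.91 and 9.63) lay below every WT array. Hdac4KO replicates 2, 3 and 4 (10.589, 10.592 and 10.594) lay barely above the highest WT array (10.586). The probe set 1435224_at lay at 9.82, 9.93 and 10.04 in Hdac4KO arrays and at 9.76, 9.95 and 10.004 in WT arrays (log2 fold change 0.02, adjusted p = 0.852).

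**Figure D2:**
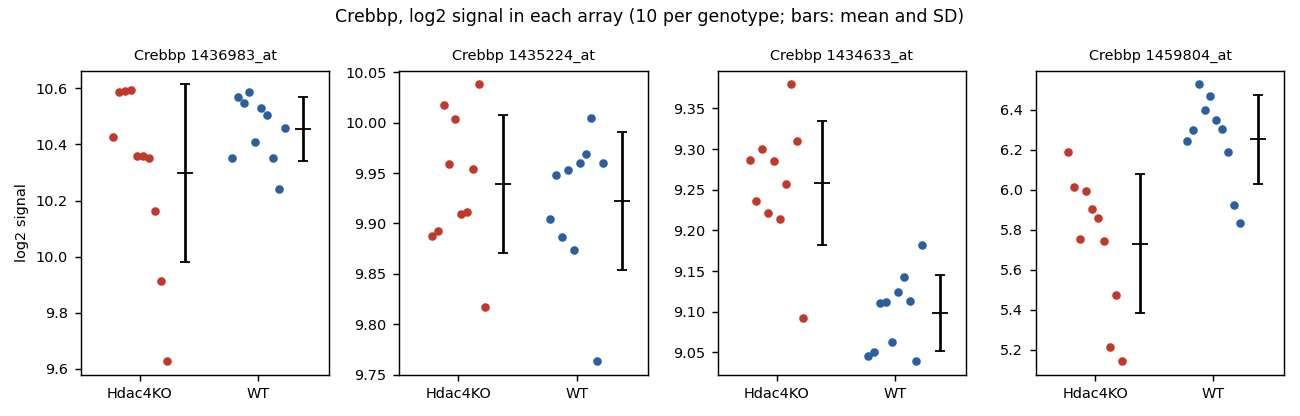
Log2 signal (y axis, a separate scale in each panel) of the 4 Crebbp probe sets in each array, with Hdac4KO left of WT; points are single arrays and bars the mean and SD of 10 arrays. At 1434633_at 9 Hdac4KO arrays lie above all WT arrays, at 1459804_at 5 lie below all of them, and at 1436983_at 3 lie above and 3 below.

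The 4 Crebbp fold changes spanned 0.685 on the log2 scale. Among the 1093 genes with 4 probe sets the median span was 0.15, the 90th percentile was 0.33, and 6 genes exceeded Crebbp. Crebbp was also among the 9 of 9010 genes (0.0999%) with 1 probe set called higher and another called lower. Crebbp is one of the genes the study picked from these same arrays for follow-up, as are Ing5 and Rlf, named below. That choice and the calls here rest on the same values and are not independent. The part of the transcript that each probe set reads was not given in the sources used here.

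Ep300, the close relative of Crebbp, has 1 probe set. It lay at 9.32, 9.43 and 9.50 in Hdac4KO arrays and at 9.30, 9.50 and 9.65 in WT arrays. Although 9 of 10 Hdac4KO arrays were below the WT median, the Hdac4KO values lay inside the WT range, and the log2 fold change of −0.07 (95% interval −0.15 to 0.02) was not called (limma adjusted p = 0.419).

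Ncoa1 encodes SRC-1, a coactivator that binds hormone-bound nuclear receptors, brings in CBP and p300, and has weak acetyltransferase activity itself. The probe set 1418594_a_at was higher in Hdac4KO brains. It lay at 10.07, 10.12 and 10.22 in Hdac4KO arrays and at 9.92, 10.01 and 10.13 in WT arrays. All 10 Hdac4KO arrays were above the WT median and 5 were above every WT array. The log2 fold change was 0.12 (SE 0.03, 95% interval 0.06 to 0.19, limma adjusted p = 0.0427). The call was close to the threshold: it held in 7 of the 20 fits that left out 1 array, and was lost without Hdac4KO replicate 3, 5, 7, 8, 9 or 10 or WT replicate 1, 2, 4, 5, 7, 8 or 9 (adjusted p between 0.0505 and 0.0825). Without both Hdac4KO replicate 10 and WT replicate 8 it was 0.11 (adjusted p = 0.102), and with the 3′ minus 5′ covariate 0.10 (adjusted p = 0.177).

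The brightest probe set of Ncoa1, 1434515_at, lay at 10.32, 10.43 and 10.63 in Hdac4KO arrays and at 10.28, 10.37 and 10.43 in WT arrays. In 6 Hdac4KO arrays it was above every WT array, and the log2 fold change was 0.07 (95% interval 0.00 to 0.14, adjusted p = 0.282). At the dim 1443397_at it was −0.16 (adjusted p = 0.303). It was never above its array's median.

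Kat2a (GCN5) and Kat2b (PCAF) are alternative catalytic subunits of the SAGA and ATAC complexes, which acetylate histone H3 at promoters. The brightest Kat2a probe set lay at 9.90, 10.004 and 10.03 in Hdac4KO arrays and at 9.83, 9.91 and 10.01 in WT arrays. With 9 of 10 Hdac4KO arrays above the WT median and 5 above every WT array, its log2 fold change was 0.08 (SE 0.03, 95% interval 0.02 to 0.14), and it was not called (limma adjusted p = 0.154). Its other probe sets differed by 0.01 and −0.05.

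The brightest Kat2b probe set did not separate the genotypes. It lay at 8.91, 8.98 and 9.10 in Hdac4KO arrays and at 8.83, 8.98 and 9.06 in WT arrays (log2 fold change 0.03, 95% interval −0.04 to 0.10, limma adjusted p = 0.719). The dim Kat2b probe set 1450821_at lay at 4.39, 4.50 and 4.76 in Hdac4KO arrays and at 4.48, 4.75 and 4.99 in WT arrays, with 4 Hdac4KO arrays below every WT array. Its log2 fold change of −0.24 (SE 0.06) just missed the threshold (adjusted p = 0.0511). The remaining Kat2b probe set differed by 0.15 (adjusted p = 0.183), and neither dim one was above its array's median in any array.

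The MYST family holds the other catalytic subunits. Kat5 (TIP60) acetylates histone H4, H2A and the kinase ATM in DNA repair and transcription. Its brightest probe set lay at 9.36, 9.52 and 9.58 in Hdac4KO arrays and at 9.36, 9.48 and 9.52 in WT arrays, 5 Hdac4KO arrays being above every WT array and 1 below. The log2 fold change was 0.04 (95% interval −0.03 to 0.10, limma adjusted p = 0.609), and at the other probe set 0.09 (adjusted p = 0.182).

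Kat6a (MOZ) and Kat6b (MORF) acetylate histone H3 and in mice Kat6a is required for blood stem cells and Kat6b for development of the cerebral cortex. Kat6a was at 9.80, 9.85 and 9.93 in Hdac4KO arrays and at 9.71, 9.81 and 9.88 in WT arrays at its brightest probe set (log2 fold change 0.06, 95% interval 0.00 to 0.11, limma adjusted p = 0.294). Its probe set 1437487_at had the opposite sign, at 6.08, 6.52 and 6.66 in Hdac4KO arrays and 6.54, 6.66 and 7.10 in WT arrays. There all 10 Hdac4KO arrays lay below the WT median and 5 below every WT array, with a log2 fold change of −0.24 that was not called (SE 0.08, adjusted p = 0.106). The dim 1446405_at differed by −0.09. Kat6b was at 9.80, 9.90 and 10.02 in Hdac4KO arrays and at 9.72, 9.87 and 9.94 in WT arrays (log2 fold change 0.04, 95% interval −0.04 to 0.12, adjusted p = 0.622), and its 2 dim probe sets differed by 0.05 and 0.08.

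Kat7 (HBO1) acetylates histone H3 and H4 and takes part in licensing of replication origins. Its brightest probe set lay at 9.24, 9.35 and 9.37 in Hdac4KO arrays and at 9.24, 9.30 and 9.34 in WT arrays (log2 fold change 0.04, 95% interval −0.02 to 0.09, limma adjusted p = 0.50). The others differed by −0.10 and 0.05, neither called. Kat8 (MOF) acetylates histone H4 in the MSL and NSL complexes. It had the smallest fold change of the 10 brightest probe sets, at 8.16, 8.23 and 8.28 in Hdac4KO arrays and 8.12, 8.21 and 8.34 in WT arrays (log2 fold change 0.00, 95% interval −0.06 to 0.07, adjusted p = 0.965).

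**Figure D3:**
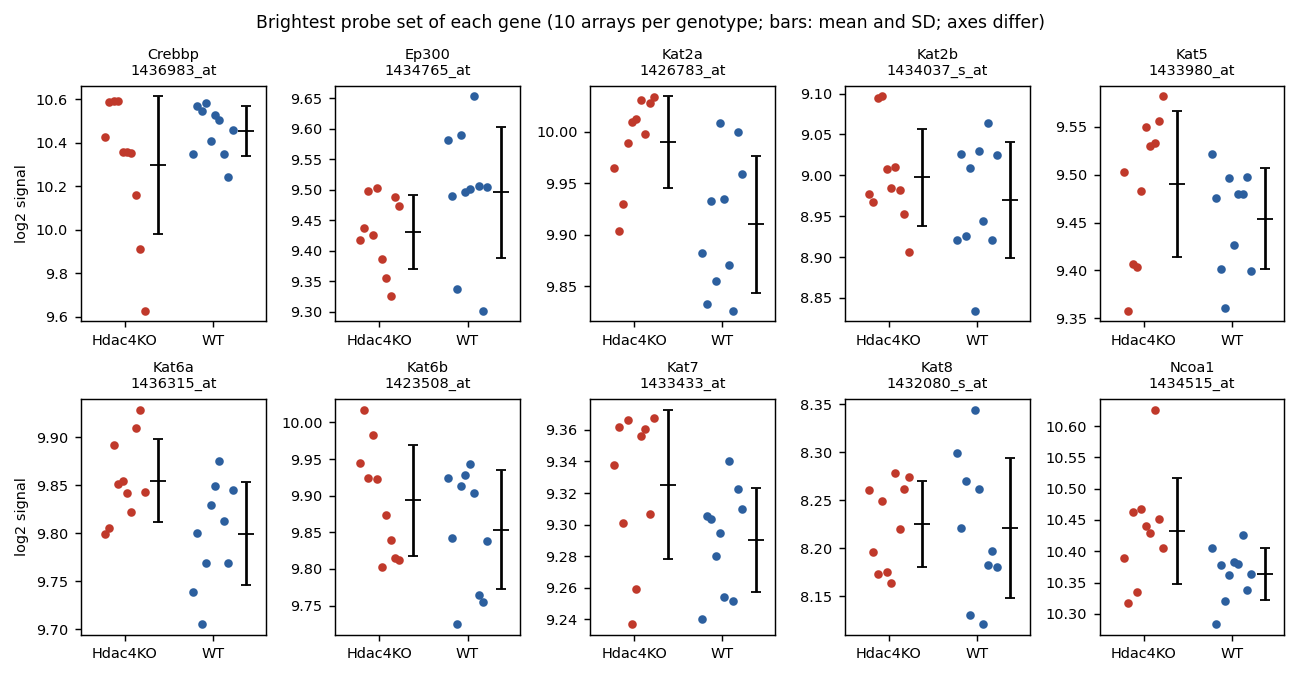
Log2 signal (y axis, a separate scale in each panel) of the brightest probe set of each of the 10 acetyltransferase genes in each array, with Hdac4KO left of WT; points are single arrays and bars the mean and SD of 10 arrays. The groups overlap in every panel and none was called; the wide Hdac4KO spread of Crebbp (SD 0.32 against 0.11 in WT) stands out.

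Whether probe sets of 1 gene disagreed was tested on the per-array difference between each probe set and its gene's brightest one. Of the 16 such differences in the 8 genes with more than 1 probe set, 2 were called, both below 0, against 5.05% of 16752 differences over all genes. At Crebbp 1459804_at the fold change was lower than that of the brightest probe set by a log2 difference of −0.37 (SE 0.08, 95% interval −0.54 to −0.19, limma adjusted p = 0.0173). At Kat2b 1450821_at it was −0.27 (SE 0.06, 95% interval −0.39 to −0.15, adjusted p = 0.0155). Both were called when any single array was left out and without Hdac4KO replicate 10 and WT replicate 8 together, and both missed the threshold with the 3′ minus 5′ covariate (−0.31, adjusted p = 0.0881, and −0.23, adjusted p = 0.0755). The next differences were 0.32 at Crebbp 1434633_at (adjusted p = 0.0542) and −0.29 at Kat6a 1437487_at (adjusted p = 0.0630). Ncoa1 1418594_a_at did not differ from its brightest probe set beyond the threshold.

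**Figure D4:**
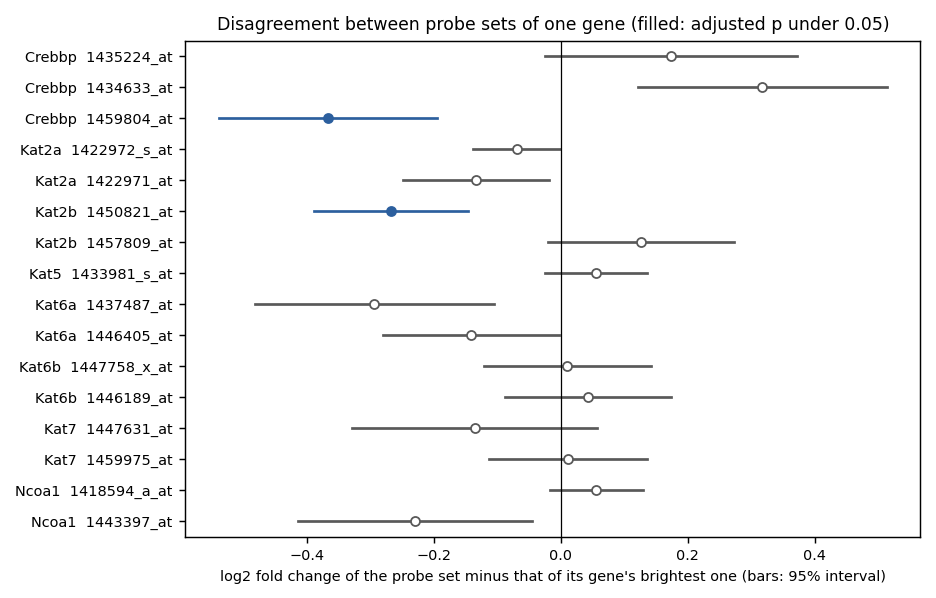
Log2 fold change of each further probe set minus that of its gene's brightest one (x axis, 95% confidence intervals from limma, 10 arrays per genotype) for the 8 genes with more than 1 probe set (y axis). The filled points, Crebbp 1459804_at at −0.37 and Kat2b 1450821_at at −0.27, passed an adjusted p of 0.05.

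Hdac4KO replicates 9 and 10 were low at some probe sets with negative fold changes and not at others. Replicates 9 and 10 held the lowest Hdac4KO values at Crebbp 1436983_at (9.91 and 9.63), Kat6a 1437487_at (6.20 and 6.08) and Kat7 1447631_at (5.86 and 5.83). At Crebbp 1459804_at they were among the lowest 3. At Ep300 1434765_at they lay above the Hdac4KO median (9.49 and 9.47), and at Kat6a 1446405_at replicate 9 was among the lowest (4.07) and replicate 10 among the highest (4.34). These probe sets were chosen after their values were seen.

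Probe sets most like each called one were found by Pearson's r over the 20 arrays, after each genotype's mean was taken out. For Crebbp 1459804_at they belonged to Rlf (r = 0.93), Ldah (0.93) and Bptf (0.91), with log2 fold changes of −0.86, −0.23 and −0.56. Of these, Rlf was called (limma adjusted p = 0.0218), and Ldah (0.126) and Bptf (0.0548) were not. The likeness of Crebbp 1459804_at to the brightest Crebbp probe set was 0.75, ranked 478, and to the Crebbp probe set that was higher, 1434633_at, it was 0.01. For Crebbp 1434633_at the most alike were Kirrel (0.82), Zfp354c (0.81) and Dapk1 (0.81), with log2 fold changes of 0.00, 0.00 and 0.02, and 1435224_at of Crebbp itself had r = 0.65, ranked 141. For Ncoa1 1418594_a_at they were Bid (0.76), Lonrf2 (0.76) and Med13l (0.75), a Mediator subunit gene that was higher by 0.15 (limma adjusted p = 0.0260). The brightest Ncoa1 probe set had r = 0.47. Arrays share RNA quality and labelling, so these are descriptions only.

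The genotype difference was also compared between the sexes. The genotype by sex interaction was called by limma at 0 of the 26 probe sets and at 0% of all probe sets. An unadjusted p under 0.05 was reached by 2 of the 26 and by 5.35% of all. Without the 3 arrays whose sex-linked genes did not fully match the label, 0 of the 26 were called and 3 had an unadjusted p under 0.05, beside 8.38% of all.

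The acetyltransferases act with partners and complex subunits, of which 82 of 84 listed genes were named on the array. At the brightest probe set 2 (2.44%) were higher and 0 were lower, against 1.96% of all genes called. Both encode CREB coactivators that help to recruit CBP. Crtc3 lay at 8.07, 8.17 and 8.22 in Hdac4KO arrays and at 7.98, 8.03 and 8.09 in WT arrays, a log2 difference of 0.13 (SE 0.03, limma adjusted p = 0.0198). Its other probe set differed by −0.02. Crtc2 lay at 6.38, 6.44 and 6.81 in Hdac4KO arrays and at 6.13, 6.30 and 6.45 in WT arrays, 0.21 (SE 0.05, adjusted p = 0.0481), while its other probe set differed by 0.03. This Crtc2 call was close to the threshold, and its probe set was above the array median in 15 of 20 arrays. The median over this list of 8 partners was 0.08, beside 0.01 over all genes, and 5 of the 8 were above 0. Creb1, which encodes CREB, had the lowest fold change of the list at −0.09 (limma adjusted p = 0.240). Crtc1 differed by 0.12 (adjusted p = 0.191), and Cited4, which binds CBP and p300, by 0.25 (adjusted p = 0.118). That Cited4 probe set was above the array median in 3 of 20 arrays, and the other one of Cited4 differed by 0.02.

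Over any probe set, 8 of the 82 partner genes (9.76%) had a call, 5 higher and 3 lower, against 4.06% of all genes. Counted by probe set it was 8 of 214 (3.74%), against 2.06% of all probe sets. Among other acetyltransferases, Clock, which pairs with BMAL1 in the circadian clock, was higher at 1418660_at (0.14, limma adjusted p = 0.0239), and so was Elp3, the catalytic subunit of Elongator, at 1437338_x_at (0.14, adjusted p = 0.0427). Neither was called at its brightest probe set, and the median of the 10 was 0.05.

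None of the 20 SAGA and ATAC subunits or 14 TIP60 subunits was called at any probe set by limma. At the brightest probe set 4 of each list had an unadjusted p under 0.05, beside 19.0% of all genes. Atxn7, a SAGA subunit that anchors its deubiquitinase, differed by 0.13 (adjusted p = 0.0523), Tada2a by 0.11 (adjusted p = 0.107) and Taf10 by −0.09 (adjusted p = 0.181). Of the TIP60 complex, Ing3, a reader of methylated histone H3, differed by −0.14 (adjusted p = 0.0573), Ep400, its ATPase, by 0.11 (adjusted p = 0.104) and Mrgbp by 0.07 (adjusted p = 0.206).

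Subunits that pair with the MYST enzymes were called only away from their brightest probe sets. Ing5, a subunit of the MOZ, MORF and HBO1 complexes that lies on chromosome 1 with Hdac4, was higher at 1442094_at (0.51, SE 0.12, limma adjusted p = 0.0351) and differed by −0.01 at its brightest. Brd1, a scaffold of the HBO1 complex, was lower at the dim 1447420_at (−0.20, SE 0.04, adjusted p = 0.0232) and differed by 0.08 at its brightest. Meaf6 differed by −0.11 (adjusted p = 0.0901). Of the Kat8 complexes, Msl2 was lower at 1453030_at (−0.26, adjusted p = 0.0385) and Kansl1 at 1447569_at (−0.21, adjusted p = 0.0442), beside −0.06 and 0.07 at their brightest, and Kansl2 differed by 0.10 (adjusted p = 0.0616). None of the 7 genes of nuclear receptors and coactivators or 4 genes of acetyl-CoA supply was called. Thra, a thyroid hormone receptor that recruits Ncoa1, differed by 0.09 (adjusted p = 0.0868), and Acly, which makes acetyl-CoA from citrate, by −0.06 (adjusted p = 0.183).

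**Figure D5:**
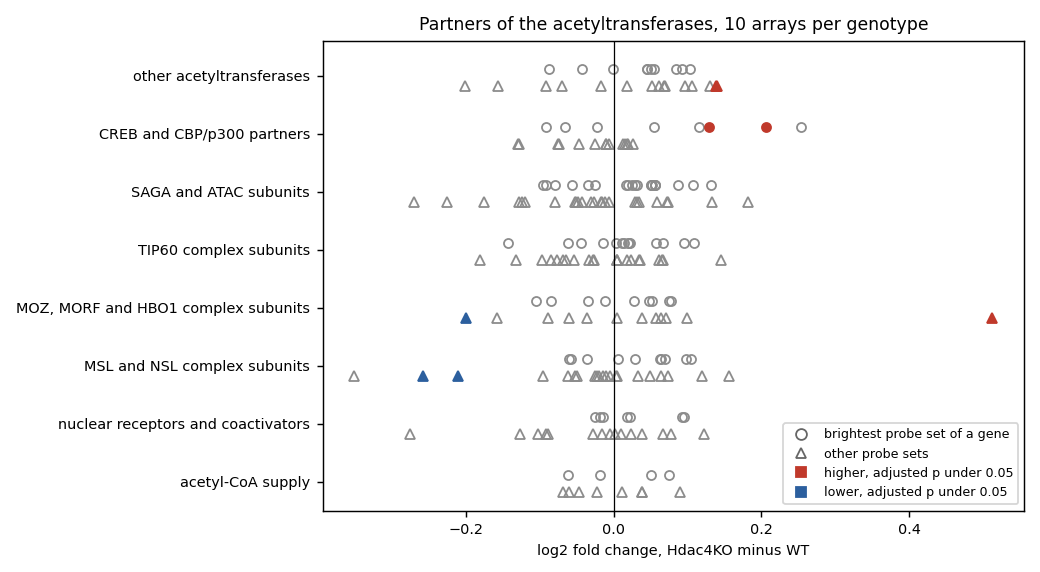
Log2 fold change (Hdac4KO minus WT, x axis) of the partner genes by list (y axis), 10 arrays per genotype; circles are brightest probe sets and triangles the other probe sets, and filled symbols passed an adjusted p of 0.05. The 2 filled circles are Crtc3 at 0.13 and Crtc2 at 0.21, and the rightmost triangle is Ing5 at 0.51.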

How the data were processed

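RNA of 20 whole brains was measured on Affymetrix mouse arrays from 200 ng of total RNA per array, labelled with a 3′ in vitro transcription kit. The authors excluded chips by their normalized unscaled standard error and deposited log2 signals per probe set and array; neither the summary and normalization method nor a genome build was given in the sources. Of 45101 probe sets, 64 controls were left out. The platform table gave 34945 of the rest 1 symbol, 932 several and 9160 none. Genotypes were compared with lmFit and eBayes (limma 3.58.1, R 4.3.3) with no covariate and Benjamini-Hochberg adjustment over all 45037 probe sets. Within-gene differences were fitted alike over 16752 differences. Each array was made from 1 brain per the study's methods. The number of arrays limits the precision.

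The members and lists were chosen with earlier results of these data known. Every member probe set is accounted for; of partner lists, genes with a called probe set and otherwise up to 3 by p are named, and for each called member the 3 most alike genes. WT and Hdac4KO arrays share replicate numbers, but 1 of 10 same-numbered pairs correlated above 0.1 (−0.15 to 0.16), so they were not treated as pairs. Alternatives were a t-test, Welch's test, trend and robust eBayes, sex, the 3′ minus 5′ signal or the replicate number as a term, a filter on dim signals (22603 probe sets past the median of their array in 10 or more arrays), quantile normalization, median centring and arrays left out. The code was tested on simulated data. Promoter windows came from RefSeq GRCm38.p6; the arrays' coordinates were not used.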

Additional observations from a re-analysis of the deposited data

Results flagged for a closer look

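Of 52 groups of 10 arrays (26 probe sets in each genotype), 4 held an array that stood apart from the others by Dixon's criterion, and chance gives about 1 in 20 groups. The Kat5 probe set 1433981_s_at was lowest in Hdac4KO replicate 2 at 9.23, with the next array at 9.34. The Ncoa1 probe set 1434515_at was highest in Hdac4KO replicate 8 at 10.63, with the next at 10.47. The Ncoa1 probe set 1443397_at was lowest in WT replicate 9 at 3.48, with the next at 3.89. The Kat2a probe set 1422971_at was highest in WT replicate 8 at 7.83, with the next at 7.63. None of these probe sets was called.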

How the results depend on the processing

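The report counted 3 called member probe sets, 2 partner genes called at the brightest probe set and 2 within-gene differences. With the 3′ minus 5′ covariate all of these counts were 0, while calls over all probe sets fell to 0.0955%, beside 2.06% without it. Partner genes called were 4 with the t-test, 6 with trend and robust eBayes, 8 with dim probe sets left out and 1 with quantile normalization, where 2.22%, 3.08%, 7.41% and 2.11% of all probe sets tested were called. Without Hdac4KO replicate 10 and WT replicate 8, and also without the 3 arrays not matching their sex label, 1 member probe set and 1 partner gene were called (0.726% and 0.921% of all probe sets). With the replicate number as a block, which was not established as a pairing, 2 member probe sets were called, both lower (Crebbp 1459804_at, adjusted p = 0.00436, and Kat6a 1437487_at, adjusted p = 0.0457), Crebbp 1434633_at (adjusted p = 0.0525) and Ncoa1 1418594_a_at (adjusted p = 0.0812) were not, and 4 within-gene differences were. With that block 2.105% of all probe sets were called. Leaving out 1 array at a time gave 1 to 4 member probe sets, 1 to 6 partner genes and 2 to 5 differences. Calls over all probe sets also moved in these fits, from 0.779% without WT replicate 2 to 3.81% without Hdac4KO replicate 2. A single member probe set was called without Hdac4KO replicate 8 or 9 or WT replicate 2, 4, 5 or 7. There 0.779% to 1.101% of all probe sets were called, beside 2.06% with every array. Crebbp 1434633_at passed in 29 of 31 alternatives, Crebbp 1459804_at in 19 of 30 and Ncoa1 1418594_a_at in 14 of 31. Kat2b 1450821_at passed with trend and robust eBayes (adjusted p = 0.0452), sex as a covariate (0.0471), median centring (0.0442), and without Hdac4KO replicate 2 (0.0305), 3 (0.0415) or 4 (0.0351) or WT replicate 9 (0.0177). Kat8, at 0.0042, changed sign with quantile normalization (−0.0051), without Hdac4KO replicate 10 and WT replicate 8 (−0.0055), and over single arrays left out (−0.0069 to 0.018). The causes were not tested. Dim probe sets, never or seldom above the array median, limit what could be read at Kat2b, Kat6a, Kat6b, Kat7, Ncoa1 and at the lower Crebbp probe set, 1459804_at. The fold changes of the other brightest member probe sets kept their direction in these alternatives.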
